A study of Mus musculus with 24 samples.

Results

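Macrophages sorted from the mouse heart as Ccr2hi or Ccr2lo were compared by the lentiviral DNA barcodes they carried, barcode by barcode and over the whole range of barcode abundance. The comparison used 6 of the 24 samples of the study: the 3 Ccr2hi and the 3 Ccr2lo samples named by the labels, 1 of each from each of 3 recipient mice, paired by mouse number. The study sequenced barcodes in genomic DNA of 8 sorted populations per mouse, and the other populations (blood monocytes, neutrophils, B cells and T cells, and renal M1 and M2 macrophages) were used here only as points of reference. All groups had the same history. Haematopoietic stem cells of C57BL/6 donor bone marrow (strain label C57BL/6J) were cultured, infected with the barcoding lentivirus pBC008 on day 5 after plating, and sorted 4 days after infection as GFP+ LSK cells, which are positive for Sca1 and cKit. They were injected together with CD45.2+ rescue cells into male CD45.2 recipients aged 5 weeks that had received 9 Gy to the whole body. Tissues were taken 2 months later. Every group was thus made of irradiated recipients, and no untransplanted or unirradiated animal belongs to the comparison. The gates that separated Ccr2hi from Ccr2lo cells and the number of cells sorted are not given in the labels. The files hold barcode counts and no expression, so the Ccr2 label could not be checked against its marker.

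A barcode integrates into the genome of the infected stem cell and is copied into all of its progeny, so cells that carry the same barcode descend from the same infected cell or from cells that received the same sequence independently. The adult heart holds resident macrophages, many of which are low in the chemokine receptor Ccr2 and in the undisturbed animal are largely maintained without input from blood, and Ccr2-positive macrophages, which are replaced by circulating monocytes. Ccr2 binds the chemokine Ccl2 and is the receptor by which monocytes leave the bone marrow and enter tissue. Cells of the recipient and rescue cells carry no barcode and give no reads here. The reads show each barcode's part of the amplified barcode copies and say nothing about how many macrophages carried no barcode.

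The barcodes are synthetic sequences of 52 bases with no position in the mouse genome, and their sites of integration were not analysed. They are built so that G or C takes turns with A or T, and bases off that pattern are printed in capitals. Barcodes are named by a letter for the mouse (A, B and C for mice 1, 2 and 3). The 3 with the highest mean of both cardiac shares in each mouse are shown first, because they hold the largest shares of both subsets:
A1: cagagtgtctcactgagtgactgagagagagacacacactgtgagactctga
A2: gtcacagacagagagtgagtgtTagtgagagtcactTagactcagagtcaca
A3: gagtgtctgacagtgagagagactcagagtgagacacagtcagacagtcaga
B1: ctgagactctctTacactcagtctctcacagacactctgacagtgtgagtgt
B2: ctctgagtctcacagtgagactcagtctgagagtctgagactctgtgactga
B3: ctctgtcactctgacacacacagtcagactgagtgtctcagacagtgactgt
C1: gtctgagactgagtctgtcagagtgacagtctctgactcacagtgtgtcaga
C2: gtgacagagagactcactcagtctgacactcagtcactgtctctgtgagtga
C3: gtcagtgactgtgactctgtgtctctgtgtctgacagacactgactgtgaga
Of these 9 barcodes, A2 has 2 bases and B1 has 1 base off the pattern. The barcodes whose shares differed most between the subsets are shown next, because the skewed part of the repertoire turns on them. A4, B4 and C4 had the highest and A6, B6 and C6 the lowest ratio of Ccr2hi to Ccr2lo share in their mouse among barcodes with a mean share of at least 0.1%:
A4: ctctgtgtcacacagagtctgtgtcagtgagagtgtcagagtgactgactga
B4: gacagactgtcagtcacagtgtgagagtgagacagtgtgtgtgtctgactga
C4: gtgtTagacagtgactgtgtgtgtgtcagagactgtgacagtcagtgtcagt
A6: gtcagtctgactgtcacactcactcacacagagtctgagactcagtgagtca
B6: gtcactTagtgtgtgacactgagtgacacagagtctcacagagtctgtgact
C6: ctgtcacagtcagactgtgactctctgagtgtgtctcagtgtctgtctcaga
The last set was well covered in a cardiac subset and had 3 or fewer reads in the other subset of the same heart:
A8: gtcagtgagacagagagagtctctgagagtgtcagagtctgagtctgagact
B8: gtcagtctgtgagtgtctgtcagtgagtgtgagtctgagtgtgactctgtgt
C8: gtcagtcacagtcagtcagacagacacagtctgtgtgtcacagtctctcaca
A9: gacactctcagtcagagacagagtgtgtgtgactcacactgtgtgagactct
B9: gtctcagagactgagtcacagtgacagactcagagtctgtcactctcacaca
C9: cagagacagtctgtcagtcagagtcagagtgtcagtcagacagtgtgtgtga

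The 6 libraries held 10279704 to 13751924 reads and 34978 to 53253 distinct sequences, of which 59.9% to 64.4% had 1 read. Sequences on the alternating pattern held 86.3% to 91.6% of the reads. Barcodes that were 100-fold or more higher in a different mouse of the study held 0.406% to 0.509% of Ccr2hi reads and 0.574% to 0.725% of Ccr2lo reads. A share of 0.01%, the level at which a barcode was counted as present, corresponded to 1028 to 1375 reads, and for a barcode without reads the limit was 2.18e-05% to 2.92e-05% (3 reads). Molecular identifiers were not part of the amplification, so all intervals and limits of this kind cover counting error only. With 3 mice the exact sign-flip permutation test, two-sided and paired by mouse, cannot give a p below 0.25. That value means only that all 3 mice moved the same way, and after adjustment over 16 of these tests it was 0.364. Other sign-flip p-values given below, such as those of the overlaps with neutrophils, B cells and T cells, were not part of that adjustment.

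The same few barcodes led both subsets, and they held a larger part of the Ccr2hi than of the Ccr2lo reads. The 10 most abundant barcodes of a sample held 14.2%, 26.9% and 21.2% of Ccr2hi reads in mice 1, 2 and 3, and 11.2%, 20.1% and 14.9% of Ccr2lo reads. The Ccr2hi value was above the Ccr2lo value of the same mouse in 3 of 3 mice, by 5.37 ± 2.10 percentage points (SD, n = 3, exact sign-flip p = 0.25), while the ranges over mice overlapped. Of the 10 leaders of Ccr2hi, 7, 7 and 8 were also among the 10 leaders of Ccr2lo in mice 1, 2 and 3, and of the leading 50, 38, 46 and 42 were shared. It took 162, 48 and 63 barcodes to reach 50% of the Ccr2hi reads and 182, 69 and 94 to reach 50% of the Ccr2lo reads.

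A1 and A2, the leading barcodes of mouse 1, held 2.18% and 2.12% of Ccr2hi and 1.74% and 1.78% of Ccr2lo reads. The ratio of A1 to A2 stayed between 0.973 and 1.18 over all 8 populations of that mouse. B1 was the most abundant barcode of both subsets in mouse 2, with 6.05% of Ccr2hi and 4.31% of Ccr2lo reads. B3 took 3.88% and 2.30% there, and B2 took 3.56% and 3.04%. In mouse 3, C1 held 2.85% of Ccr2hi and 1.51% of Ccr2lo reads, and C3 2.05% and 1.62%. All 9 leaders were higher in Ccr2hi, by 1.17-fold (B2) to 1.89-fold (C1).

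The repertoire of the Ccr2lo samples was more even. The effective number (exp of the Shannon entropy, which equals the number of barcodes if all were equally abundant) was 791, 333 and 411 in Ccr2hi and 889, 419 and 554 in Ccr2lo macrophages of mice 1, 2 and 3. Mouse 1 was the most diverse and mouse 2 the least in both subsets, and the spread between mice was wider than the difference between subsets. On the log2 scale Ccr2hi was lower by 0.17, 0.33 and 0.43, a mean of -0.31 ± 0.13 (SD, n = 3, exact sign-flip p = 0.25), or a ratio of 0.806. The count of barcodes depended on the threshold. At 1% or more there were 8, 15 and 15 barcodes in Ccr2hi against 6, 10 and 14 in Ccr2lo. At 0.1% or more there were 233, 174 and 176 against 224, 189 and 213. At 0.01% or more there were 1299, 925 and 993 against 1361, 969 and 1090. At 1% or more Ccr2hi held more barcodes in every mouse, and at 0.01% or more Ccr2lo did, by 67.7 ± 27.0 barcodes (SD, n = 3, exact sign-flip p = 0.25). The plot of barcode numbers by threshold shows these counts.

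**Figure D1:**
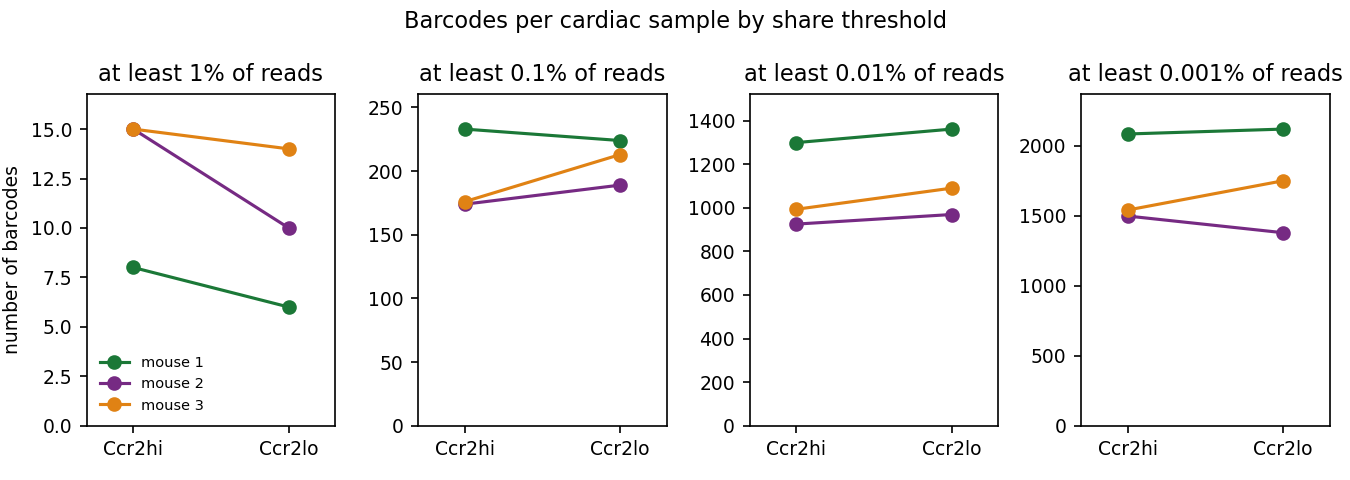
Number of barcodes (y axis, from 0, with its own scale in each panel) that reached 1%, 0.1%, 0.01% or 0.001% of reads in the Ccr2hi and Ccr2lo sample of each mouse; points are samples and lines join the samples of a mouse. At 1% the lines fall from Ccr2hi to Ccr2lo in all 3 mice, and at 0.01% they rise in all 3; at 0.1% and 0.001% the mice differ in direction.

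Most barcodes were shared. At 0.01% of reads, 1075, 759 and 806 barcodes of mice 1, 2 and 3 were present in both subsets, 224, 166 and 187 in Ccr2hi alone, and 286, 210 and 284 in Ccr2lo alone. The shared ones made up 82.0% ± 0.796 of the Ccr2hi list and 77.1% ± 2.74 of the Ccr2lo list (SD, n = 3). They held 92.3% ± 1.19 of Ccr2hi and 90.7% ± 1.74 of Ccr2lo reads. The most abundant of the barcodes present in 1 subset alone had 0.0652%, 0.105% and 0.0787% of Ccr2hi reads and 0.0760%, 0.0836% and 0.0930% of Ccr2lo reads, several times the threshold. The barcode of mouse 2 with 0.105% of Ccr2hi reads was below 0.001% in Ccr2lo. At a threshold of 0.1%, 168, 152 and 149 barcodes were present in both, 65, 22 and 27 in Ccr2hi alone and 56, 37 and 64 in Ccr2lo alone. Each of these had reads in the other subset as well. Reads alone do not show presence there, because barcodes of this size also had reads in other mice. The highest share in another mouse was, for example, 0.000103% for A4, 0.000174% for B4 and 0.000237% for B6.

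The overlap of Ccr2hi and Ccr2lo, which adds up the smaller of both shares over all barcodes (1 for identical samples), was 0.785, 0.799 and 0.778 in mice 1, 2 and 3. Ccr2hi of a mouse and Ccr2lo of another overlapped by 0.0247 to 0.0392 over the 6 such pairs, so the mouse numbers in the labels pair the cardiac samples. Renal M2 macrophages were the population outside the heart that came nearest. The overlap within the heart exceeded that of Ccr2hi with M2 by 0.107, 0.0497 and 0.110, and that of Ccr2lo with M2 by 0.109, 0.0505 and 0.109 (exact sign-flip p = 0.25 each). The overlap of Ccr2hi with M2 minus that of Ccr2lo with M2 was 0.00248, 0.000778 and -0.00165 in mice 1, 2 and 3. Among the barcodes with a mean cardiac share of at least 0.1%, log shares correlated across barcodes with Pearson's r = 0.793, 0.888 and 0.855 (n = 222, 184 and 193 barcodes, which share 2 libraries and are not replicates). At 0.01% or more, with reads in both subsets, r was 0.541, 0.499 and 0.417 (n = 1329, 955 and 1053). Spearman's rho, which uses ranks, was 0.662, 0.751 and 0.770 at 0.1% or more and 0.732, 0.705 and 0.640 at 0.01% or more, and so was not lower in mouse 1. The plot of shares in both subsets shows how the cloud widens toward low shares.

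**Figure D2:**
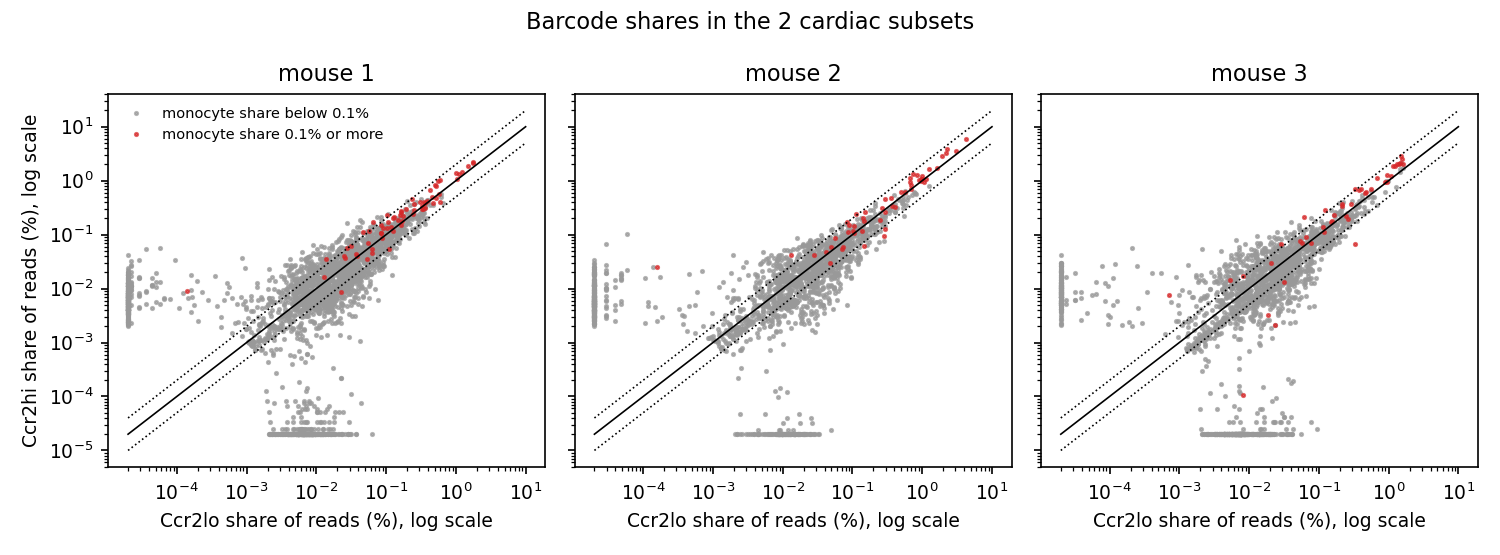
Share of reads of each barcode in Ccr2lo (x axis) and Ccr2hi macrophages (y axis), in percent on log scales, for barcodes with a mean cardiac share of at least 0.001%; a barcode with 0 reads is drawn at the lower edge. The solid line marks equal shares and the dotted lines 2-fold; points in red held 0.1% or more of the monocyte reads of the same mouse. The 36 barcodes of at least 1% all lie between the dotted lines, while many below 0.01% lie along the edges.

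Barcodes were then grouped by the mean of their Ccr2hi and Ccr2lo shares. In the top range, at least 1%, there were 7, 14 and 15 barcodes in mice 1, 2 and 3. They held 11.4%, 30.9% and 27.5% of Ccr2hi reads and 9.37%, 23.5% and 20.5% of Ccr2lo reads. Of the 36, 33 had the higher share in Ccr2hi (7 of 7, 12 of 14 and 14 of 15), and 0 of 36 passed 2-fold in either direction (0.0% called in each mouse). The median log2 ratio of Ccr2hi over Ccr2lo was 0.27, 0.35 and 0.49. These ratios far exceed counting error, whose SD on the log2 scale was 0.00499 on average for such barcodes, but no repeat library of a sample was used here that would measure the error of sorting and PCR. All 36 were also present at 0.01% or more in renal M2 macrophages and in a blood population of the same mouse.

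In the range of 0.1% to 1% there were 215, 170 and 178 barcodes, which held 44.9%, 40.0% and 41.5% of Ccr2hi and 44.0%, 44.3% and 43.9% of Ccr2lo reads. Pooled over mice the direction here was the opposite: 331 of 563 barcodes had the higher share in Ccr2lo. By mouse 109, 107 and 115 were higher in Ccr2lo and 106, 63 and 63 in Ccr2hi, so mouse 1 was nearly even. The median log2 ratio was -0.02, -0.17 and -0.14. Shares of a sample add up to a fixed total. The larger part of Ccr2hi reads in the top range therefore leaves a smaller part for all other barcodes together. How far this alone set the direction here was not tested, so the opposite direction is no separate result. Within 2-fold of each other lay 90.7%, 89.4% and 87.6% of the barcodes. Past 2-fold toward Ccr2hi were 11, 4 and 7 barcodes (5.12%, 2.35% and 3.93% called), and toward Ccr2lo 9, 14 and 15 (4.19%, 8.24% and 8.43% called). The net percentage past 2-fold toward Ccr2hi was -3.15 ± 3.6 points (SD, n = 3, exact sign-flip p = 0.5), and its sign differed between mice. Past 4-fold were 2 barcodes in each direction: A4 (0.465% called in mouse 1) and C4 (0.562% called in mouse 3) toward Ccr2hi, and B6 (0.588% called in mouse 2) and C6 (0.562% called in mouse 3) toward Ccr2lo.

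A4 had 0.191% of Ccr2hi and 0.0424% of Ccr2lo reads of mouse 1, a ratio of 4.49 (95% interval of the read counts 4.37 to 4.63). Its share was 0.0288% in renal M2 macrophages and at most 0.000133% in each blood population, so it was nearly confined to cardiac and renal M2 macrophages. C4 was alike in mouse 3, with 0.173% of Ccr2hi, 0.0396% of Ccr2lo and 0.0659% of M2 reads, a Ccr2hi to Ccr2lo ratio of 4.38 (4.25 to 4.52), and at most 8.47e-05% in blood. B4, the most Ccr2hi-skewed of mouse 2, had 0.150% and 0.0644%. C5, next to C4 in mouse 3, differed in its blood levels: it held 0.213% of Ccr2hi and 0.0613% of Ccr2lo reads, 3.32% of monocyte, 2.85% of neutrophil and 2.29% of renal M1 macrophage reads, but 0.0222% of T cell reads. B5, next to B4 in mouse 2, was likewise found in blood, with 0.340% of monocyte reads beside 0.241% of Ccr2hi and 0.113% of Ccr2lo reads.

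Toward Ccr2lo, B6 had 0.0531% of Ccr2hi and 0.218% of Ccr2lo reads of mouse 2, so Ccr2lo was 4.11-fold higher (3.999 to 4.226). B7, next to it, had 0.0778% and 0.283%. Both were found in M2 macrophages, at 0.108% and 0.179%, and neither passed 0.000218% in a blood population. C6 had 0.0678% and 0.334% in mouse 3, 4.92-fold higher in Ccr2lo (4.81 to 5.04), with 0.107% of monocyte reads. A6 had 0.0849% and 0.216% in mouse 1 and its highest share in T cells (0.472%). A7 (0.116% and 0.273%) and C7 (0.0728% and 0.192%) were the others named by the rule. The skewed barcodes thus included both tissue macrophage barcodes and barcodes also found in blood.

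Over all barcodes with a mean share of at least 0.1%, 22 were past 2-fold toward Ccr2hi, 38 toward Ccr2lo and 539 within 2-fold. At 0.01% or more in a blood population were 14 of 22 (63.6%), 19 of 38 and 400 of 539 (74.2%). In renal M2 macrophages nearly all were present: 20 of 22, 38 of 38 and 538 of 539. For 26 of the 38 Ccr2lo-skewed barcodes the M2 share lay between the cardiac shares, for 11 below both and for 1 above both. For the 22 Ccr2hi-skewed barcodes it lay between in 9, below both in 7 and above both in 6. The alternating pattern was kept by 20 of 22, 32 of 38 and 489 of 539. These counts are descriptions over 3 mice, and the classes were not tested against each other.

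From 0.01% to 0.1% there were 1116, 780 and 876 barcodes, with 38.2%, 25.1% and 27.1% of Ccr2hi and 40.6%, 28.4% and 30.2% of Ccr2lo reads. Fewer of them had like shares: 62.6%, 58.8% and 53.7% lay within 2-fold. Past 2-fold toward Ccr2hi were 174, 123 and 167 (15.6%, 15.8% and 19.1% called), and toward Ccr2lo 243, 198 and 239 (21.8%, 25.4% and 27.3% called). The net percentage was below 0 in 3 of 3 mice, at -8.01 ± 1.73 points (SD, n = 3, exact sign-flip p = 0.25). Ccr2lo-skewed barcodes thus outnumbered Ccr2hi-skewed ones in each heart. The fixed total of shares bears on this direction too, and its part was not tested. Past 4-fold were 164 toward Ccr2hi (4.57%, 5.9% and 7.65% called by mouse) and 256 toward Ccr2lo (6.09%, 10.9% and 11.8% called). The median absolute log2 ratio was 0.74, 0.81 and 0.91, against a counting-error SD of 0.039 on average. How many cells a barcode of this size stood for is not known, and the part of cell sampling in the spread was not tested. Such barcodes were mostly outside blood at 0.01%: 74.5%, 69.5% and 79.7% were present in M2 macrophages and 24.4%, 20.6% and 22.3% in any blood population. In the range above, the blood figures were 69.8%, 71.8% and 70.2%.

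The extremes of this range were well covered in a subset and had almost no reads in the other. A8 had 4909 reads in Ccr2hi and 2 in Ccr2lo of mouse 1, a share ratio of 2843 with a counting interval of 787 to 23479. C8 had 5121 and 1 in mouse 3, and B8 8260 and 3 in mouse 2. In the other direction C9 had 3 reads in Ccr2hi and 11812 in Ccr2lo, a ratio of 3713 (1270 to 18008), and B9 had 3 and 5144. A9 had 0 reads in Ccr2hi and 8632 (0.0628%) in Ccr2lo, at least 2484-fold higher against a floor of 3 reads per library. Their levels elsewhere varied. C9 and B9 were also found in renal M2 macrophages, at 0.0245% and 0.0174%, while A9 and B8 had at most 3.41e-05% and 4.65e-05% in every other population of their mouse.

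Barcodes confined to a cardiac subset within the heart, taken here as those with 0 reads in the other subset, were few and small. Their number and size depend on that cutoff. It left out barcodes with 1 to 3 reads in the other subset, such as B8 (0.0665% of Ccr2hi reads) and C9 (0.0930% of Ccr2lo reads). At 0.01% or more with 0 reads in the other subset there were 19, 22 and 28 in Ccr2hi, with 0.285%, 0.340% and 0.431% of its reads, and 26, 32 and 37 in Ccr2lo, with 0.479%, 0.507% and 0.673%. At this threshold the Ccr2lo count and percentage were the higher in every mouse. At 0.001% or more the counts were 140, 150 and 102 in Ccr2hi and 151, 74 and 193 in Ccr2lo, so in mouse 2 Ccr2hi had more of them, and also the higher percentage of reads (0.931% against 0.753%). The most abundant of them held 0.0219% (A10), 0.0257% (B10) and 0.0292% (C10) of Ccr2hi and 0.0628% (A9), 0.0324% (B11) and 0.0370% (C11) of Ccr2lo reads. C11 was present in M2 macrophages at 0.0296%, and A10 in neutrophils at 0.0122%. Of those confined at 0.01% or more, 6, 11 and 19 in Ccr2hi and 8, 13 and 27 in Ccr2lo had 0.001% or more in M2 macrophages. At 0.01% or more, those with 0 reads in all other populations of the mouse numbered 0, 1 and 0 in Ccr2hi and 0, 2 and 0 in Ccr2lo. At 0.001% or more they numbered 23, 17 and 11 in Ccr2hi and 21, 12 and 17 in Ccr2lo. Hence nearly all barcodes of 0.01% or more confined to a subset within the heart had at least 1 read elsewhere in the same mouse. A single read is the lowest count possible.

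Between 0.001% and 0.01% lay 1052, 657 and 795 barcodes, with 4.66%, 3.05% and 3.05% of Ccr2hi and 5.01%, 2.82% and 4.37% of Ccr2lo reads. Here 27.9%, 31.1% and 28.6% were within 2-fold. Past 2-fold toward Ccr2hi were 360, 269 and 198 (34.2%, 40.9% and 24.9% called), and toward Ccr2lo 398, 184 and 370 (37.8%, 28.0% and 46.5% called). The direction differed between mice, with a net of -4.10 ± 17.3 points (SD, n = 3, exact sign-flip p = 0.75), and without mouse 3 the mean net was 4.66. Of the 2504 barcodes, 329 had 0 reads in Ccr2lo, 353 had 0 in Ccr2hi, and 250 were 100-fold or more higher in a different mouse. The median absolute log2 ratio was 6.70, 6.90 and 6.25. Typical barcodes of this size were thus seen in 1 subset with few reads in the other, unlike those of 0.1% or more.

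Below 0.001% were 78329, 55790 and 64186 sequences, which together held 0.898% ± 0.0198 of Ccr2hi and 0.955% ± 0.0483 of Ccr2lo reads (SD, n = 3). Most had 1 read. Past 2-fold were 39.5%, 43.2% and 37.5% toward Ccr2hi and 44.8%, 39.6% and 46.5% toward Ccr2lo (called), where the counting error had an SD of 2.04 on the log2 scale. Merging a sequence into a barcode that differed by 1 mismatch and was 10-fold or more higher removed 76.0% to 79.8% of the distinct sequences of a sample. No subset difference was read from this range.

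The similarity of the cardiac subsets was set beside 2 pairs that each hold a cardiac subset and renal M2 macrophages, and beside monocytes with neutrophils. Among barcodes of 0.1% to 1%, 89.3% ± 1.54 lay within 2-fold in Ccr2hi and Ccr2lo, against 65.6% ± 10.4 in Ccr2hi and M2, 69.2% ± 9.71 in Ccr2lo and M2, and 91.8% ± 11.7 in monocytes and neutrophils (SD, n = 3). The cardiac pair exceeded Ccr2hi and M2 by 23.7 ± 10.1 points and Ccr2lo and M2 by 20.1 ± 9.72 points (exact sign-flip p = 0.25 each). At 0.01% to 0.1% the values were 58.4% ± 4.51, 45.6% ± 3.16, 49.95% ± 1.72 and 44.4% ± 10.2 in the same order. At 0.001% to 0.01% they were 29.2% ± 1.64, 24.9% ± 4.95, 24.5% ± 1.54 and 57.4% ± 9.37. In the cardiac and both M2 pairs the mean percentage was lower in each range than in the range above, as the plot of similarity by abundance shows. Each pair's ranges were set by its own mean shares, so the barcodes differ between pairs.

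**Figure D3:**
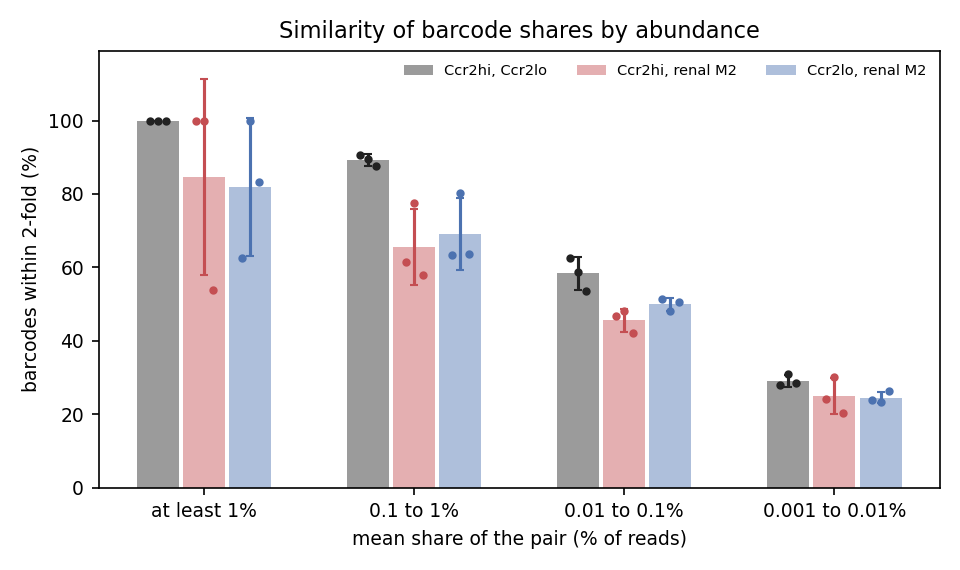
Percent of barcodes whose shares lay within 2-fold of each other (y axis) by the mean share of the pair (x axis), for Ccr2hi with Ccr2lo and for each cardiac subset with renal M2 macrophages; bars are means, whiskers SD and points the 3 mice. The cardiac pair was at 100% in the top range and at 29.2% ± 1.64 in the lowest; a whisker may pass 100% because it is the mean plus 1 SD.

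The skew between the subsets moved with the level of a barcode in blood monocytes, which was measured in a separate sample. Among barcodes of 0.1% to 1% in the heart, those with 0.1% or more of monocyte reads (40, 29 and 22 in mice 1, 2 and 3) had a median log2 ratio of Ccr2hi over Ccr2lo of 0.35, 0.22 and 0.36. Those with less (175, 141 and 156) had -0.11, -0.28 and -0.21. The former were higher in Ccr2hi in 77.5%, 69.0% and 77.3% of cases and the latter in 42.9%, 30.5% and 29.5%. Because shares add up to a fixed total, the sign of each median also depends on the other barcodes, and this part was not tested. The difference of medians was 0.45, 0.49 and 0.57, a mean of 0.50 ± 0.058 (SD, n = 3, exact sign-flip p = 0.25), and it had the same sign in 3 of 3 mice. At 0.01% to 0.1% it was 0.48, 0.51 and 0.63, a mean of 0.54 ± 0.077 (exact sign-flip p = 0.25), but over only 19, 10 and 10 barcodes with 0.1% or more of monocyte reads.

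By 4 levels in monocytes, pooled over mice, 24 of 28 barcodes with 1% or more of monocyte reads were higher in Ccr2hi (85.7%), 44 of 63 with 0.1% to 1% (69.8%), 52 of 147 with 0.01% to 0.1% (35.4%) and 112 of 325 below 0.01% (34.5%). The medians, averaged over mice, were 0.54 ± 0.28, 0.25 ± 0.064, -0.17 ± 0.11 and -0.20 ± 0.070 (SD, n = 3), as the plot of ratios by monocyte level shows. Mouse 2 did not show a graded fall: its medians were 0.23, 0.22, -0.30 and -0.21, with 6 barcodes in the top level. The cardiac share moved with the monocyte level: its median was 0.286%, 0.278% and 0.283% in the barcodes with 0.1% or more of monocyte reads and 0.150%, 0.167% and 0.169% in the others. Within narrower ranges the difference of medians was 0.67, 0.41 and 0.53 at 0.1% to 0.3% and 0.23, 0.50 and 0.51 at 0.3% to 1%. It was thus present in each mouse within both. These rest on only 20, 16 and 12, and 20, 13 and 10 barcodes with 0.1% or more of monocyte reads. Their median cardiac share was still the higher in each mouse within both ranges. At 0.3% to 1% it was 0.420%, 0.688% and 0.544%, against 0.392%, 0.455% and 0.391% in the others. The narrower ranges thus did not hold the cardiac share equal.

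**Figure D4:**
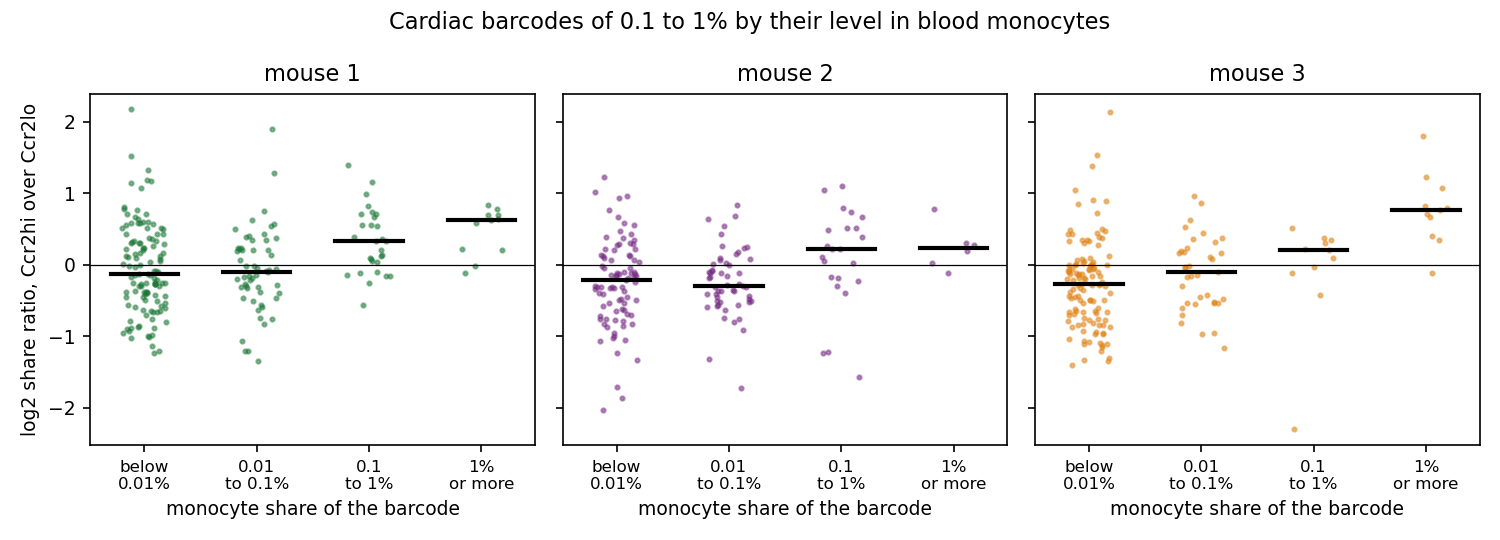
Log2 ratio of Ccr2hi over Ccr2lo share (y axis) of barcodes with a mean cardiac share of 0.1% to 1%, by their share of monocyte reads in the same mouse (x axis); points are barcodes and bars medians. In mouse 1, as an example, the medians were 0.35 for all barcodes with 0.1% or more in monocytes and -0.11 for the others; the bars above 0 are those of the upper monocyte levels in each mouse.

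Other populations were used in place of monocytes for the same split. Splitting the same barcodes of 0.1% to 1% at 0.1% of neutrophil or of renal M1 macrophage reads gave mean differences of 0.49 ± 0.092 and 0.63 ± 0.16. B cells and T cells gave 0.24 ± 0.070 and 0.29 ± 0.15, and renal M2 macrophages -0.17 ± 0.22 with unlike signs over mice (SD, n = 3). Of these, all but M2 had the same sign in 3 of 3 mice. At 0.01% to 0.1% neutrophils and M1 macrophages gave 0.54 ± 0.075 and 0.53 ± 0.038, again with the same sign in 3 of 3 mice. These rest on only 14, 12 and 10 barcodes with 0.1% or more of neutrophil reads and 14, 5 and 7 with 0.1% or more of M1 reads. Monocytes and neutrophils overlapped by 0.907 on average, and in mouse 3 both splits gave the same medians (0.36 and -0.27). The neutrophil split is thus no separate result, and how far the M1 split reused the same barcodes was not tested. B cells (0.0077 ± 0.22, positive in 2 of 3 mice), T cells (0.096 ± 0.40, positive in 1 of 3) and M2 macrophages (0.015 ± 0.24, positive in 2 of 3) did not keep a sign there. Summed over reads, barcodes with 1% or more in monocytes, whatever their cardiac share, held 14.3%, 33.7% and 15.1% of Ccr2hi reads. They held 10.9%, 25.6% and 9.14% of Ccr2lo reads, a ratio of 1.31, 1.31 and 1.65. Barcodes below 0.01% in monocytes held 57.3%, 40.7% and 51.5% of Ccr2hi and 61.8%, 46.9% and 60.2% of Ccr2lo reads. Those little seen in monocytes thus held the greater part of the reads in mice 1 and 3 in both subsets, and the largest part of the 4 classes in mouse 2.

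The overlap with monocytes was higher in Ccr2hi by 0.0463, 0.0851 and 0.0589, and that with renal M1 macrophages by 0.0371, 0.0854 and 0.0590. With neutrophils it was higher by 0.0407, 0.0863 and 0.0596, with B cells by 0.0245, 0.0184 and 0.0681, and with T cells by 0.0136, 0.0413 and 0.0501. Ccr2hi thus had the higher overlap with each blood population in 3 of 3 mice (exact sign-flip p = 0.25 each), and in mouse 3 the B cell difference was above the monocyte one. Barcodes of at least 1% contributed 0.0412 ± 0.0292 of the monocyte difference and those of 0.1% to 1% 0.0212 ± 0.00861 (SD, n = 3, exact sign-flip p = 0.25 each). In mouse 1 the order was the reverse (0.0144 and 0.0285), and without mouse 2 the means were 0.0257 and 0.0259. Barcodes of 0.01% to 0.1% contributed 0.000750 ± 0.00196 (p = 0.75, exact), with unlike signs over mice. By this index the higher overlap of Ccr2hi with monocytes lay in the barcodes of 0.1% or more. By the Morisita-Horn index, computed within the range, Ccr2hi was also the closer to monocytes at 0.01% to 0.1%, by 0.0312 ± 0.0276 and in 3 of 3 mice (exact sign-flip p = 0.25). Whether monocytes were carried along in a cardiac sort was not tested, and the files hold no marker of other cell types.

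Few cardiac barcodes were large in several mice. Of 589 barcodes with a mean cardiac share of at least 0.1% in a mouse, 7 reached it in 2 or more mice and 3 in all 3. At 0.01% the numbers were 3180, 173 and 18. C6 was among those 3, and the other two, chosen after their values were seen, are shown because they allow the skew of the same sequence to be read in 3 animals:
R4: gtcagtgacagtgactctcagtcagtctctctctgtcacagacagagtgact
R6: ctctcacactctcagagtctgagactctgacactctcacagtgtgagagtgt
C6 had a log2 ratio of 0.32, -1.57 and -2.30 in mice 1, 2 and 3, so its skew toward Ccr2lo in mice 2 and 3 was not seen in mouse 1. R4 had 1.16, -1.22 and -0.12, with 0.229% of Ccr2hi and 0.102% of Ccr2lo reads in mouse 1 but 0.126% and 0.292% in mouse 2. R6 had 0.07, -0.23 and 0.21. None of the 3 kept its direction over all mice. Of the 155 barcodes at 0.01% in exactly 2 mice, 34 were higher in Ccr2hi in both, 46 higher in Ccr2lo in both and 75 mixed. Of the 18 in all 3, 1 was higher in Ccr2hi in each, 1 higher in Ccr2lo in each and 16 mixed.

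With edgeR's quasi-likelihood test over the 6 samples, 0 of 1621 barcodes differed between the subsets at a Benjamini-Hochberg adjusted p of 0.05 (0.0% called, 0 at unadjusted p under 0.05). DESeq2 called 0 as well (0.0% called, 3 unadjusted). Of the 1621, only 173 were present at 0.01% in 2 or more mice, so in this fit the difference in level between mice entered the error of most barcodes. With the mouse as a block the fit called 24 of 5649 barcodes (0.425% called), 15 higher in Ccr2hi and 9 higher in Ccr2lo, with 223 at unadjusted p under 0.05. Of the 5649, 173 were present at 0.01% in 2 or more mice and 2575 in none. The calls depended on the mice used: without mouse 1 there were 0, without mouse 2 12 and without mouse 3 32.

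The 24 were small barcodes, with a highest mean cardiac share of 0.0024% to 0.106% over mice and a median of 0.0131%. Of them 4 reached 0.001% in 1 mouse only, so their calls rested mainly on 1 animal. The other 20 reached it in 2 or more mice, each in the same direction there. The fit with the block favours barcodes whose differences agree over mice, so this agreement is no separate support. The 3 named here were chosen after their values were seen, because they carry the largest fold changes or the most mice:
D1: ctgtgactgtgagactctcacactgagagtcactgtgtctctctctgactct
D2: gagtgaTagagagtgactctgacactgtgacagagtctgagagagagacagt
D4: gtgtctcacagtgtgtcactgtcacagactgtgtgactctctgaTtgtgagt
D1 had 1023, 1654 and 800 reads in Ccr2hi and 5, 1183 and 5 in Ccr2lo of mice 1, 2 and 3, a log2 fold change of 5.94 (edgeR with block, adjusted p = 0.000238). It was far higher in Ccr2hi in mice 1 and 3 and nearly even in mouse 2. D2 had 1493, 0 and 677 reads in Ccr2hi and 2, 0 and 0 in Ccr2lo (log2 10.22, edgeR adjusted p = 0.000238). D4 went the other way, with 1, 0 and 0 reads in Ccr2hi and 1244, 0 and 838 in Ccr2lo (log2 -10.48, edgeR adjusted p = 0.000355). C4, the barcode 4.38-fold higher in Ccr2hi of mouse 3, was called too: in mouse 1 it had 0.0177% of Ccr2hi and 0.000160% of Ccr2lo reads (log2 2.98, edgeR adjusted p = 0.000378). Fitted fold changes of barcodes with libraries at 0 depend on the prior count and are no bounds.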

How the data were processed

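Barcodes were amplified from genomic DNA in 18 PCR cycles and indexed in 9 to 11 further cycles, per the labels' protocols. Per the file headers, the deposited files list whole-number read counts per barcode sequence, 1 sample per file, not normalised. The trimming, filtering and counting by the authors are not given in the sources used here. Counts were divided by the file total to give shares. Titles gave each sample's population and mouse, and the numbers pair samples because both subsets come from the same animal, as the overlaps in the results bear out. The smallest chi-square per degree of freedom among the 15 pairs of cardiac samples was 523, so no pair agreed within sampling noise. P-values concern only these 3 animals. The sign-flip p rests on the signs and relative sizes of the differences and does not measure their spread. The fits without the block do not use the pairing.

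Measures were tested by exact sign flips over mice (Python 3.11.15, numpy 2.4.6, pandas 2.3.3, scipy 1.17.1). Counts were fitted with edgeR 4.0.16 (TMM, filterByExpr, no block) in R 4.3.3, with the mouse as a block and DESeq2 1.42.0 as alternatives. Both the measures and the fits were tested on simulated data. Where each simulated mouse had its own barcode levels, the fit without the block recovered 0 of 198 planted 4-fold changes. The absence of calls without the block therefore says little about barcodes of single mice. The fit with the block recovered 199 of 200, beside 9 false calls. The simulated counts were given less spread than the real ones, whose fitted dispersion with the block was 0.375. That recovery is therefore no measure of the power of the block fit here. Fold intervals are exact 95% binomial intervals of the read counts. The overlap, thresholds, merging of 1-mismatch sequences, removal of other mice's barcodes, thinning, a minimum of 10 reads and each mouse left out were varied.

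Barcodes were named by a rule: per mouse the 3 with the highest mean cardiac share, the 2 most skewed each way at 0.1% or more, the most skewed each way at 0.01% to 0.1%, the most abundant with 0 reads in a subset, and up to 10 edgeR calls, passing over barcodes 100-fold or more higher in a different mouse. The comparison, the lists and the rule were chosen with earlier results of these data known.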

Additional observations from a re-analysis of the deposited data

How the results depend on the processing

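Of 160 alternatives to the 15 tested measures other than 0, 156 kept the direction and 4 reversed it. The other measure, the net skew at 1% or more, was 0 and became 18.4 points at 1.5-fold. The reversals were the net skew at 0.001% to 0.01% without mouse 3 (range over left-out mice -12.6 to 4.66 points) and below 0.001% with 0.001% added to both shares (0.00433 points), the monocyte overlap at 0.01% to 0.1% without mouse 1 (range -0.000301 to 0.00164), and the split by renal M2 in place of monocytes (-0.17). The cause was not tested. Some of the 156 could not have reversed. Where all 3 mice shared a sign, leaving out a mouse could not reverse the mean. The unpaired permutations kept the main value and changed only the p.

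Values of similarity moved with their definition. The overlap was 0.939 by the Morisita-Horn and 0.659 by the Jaccard index. Reads in shared barcodes were 96.8% of Ccr2hi and 96.3% of Ccr2lo at a presence of 0.001%, and 60.7% and 56.5% at 0.1%. Within 1.5-fold lay 72.4% of barcodes of at least 1%, 67.0% at 0.1% to 1%, 38.2% at 0.01% to 0.1% and 16.1% at 0.001% to 0.01%. Within 4-fold lay 99.3%, 84.4% and 41.7% of the lower 3 ranges, and 21.2% within 2-fold at 0.001% to 0.01% after removal of other mice's barcodes.

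The replicate block by mouse moved the edgeR calls from 0 to 24, and leaving out mouse 1, 2 or 3 gave 0, 12 and 32. Unpaired, 3 against 3 samples, the exact permutation p was 0.5 for the effective number and 0.6 for the count of barcodes at 0.01%, where the smallest possible is 0.1. At 0.001% to 0.01% counting error had an SD of 0.53 on the log2 scale, against a median absolute log2 ratio of 6.62 on average. Thinning to the smallest cardiac total moved the percentage within 2-fold there from 29.2% to 28.7%. The block with each mouse left out, the split by other populations and the narrower abundance ranges were added after the data were seen.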
